A study of Mus musculus with 10 samples.

Results

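The genes described here are 10 that the integrated stress response switches on or that carry its signal out of the muscle fibre, namely the factors Atf4, Atf5 and Ddit3, the pseudokinase Trib3, the enzymes Asns, Psat1, Phgdh and Mthfd2, and the secreted mitokines Fgf21 and Gdf15. They were chosen by name, and every probe set annotated with a single member symbol was taken. Of the 10 genes, 9 had such a probe set, out of 18193 genes named in this way on the whole array. These 9 genes had 19 probe sets, of which 16 were bright enough to be tested and 3 were not. Each gene was represented by its brightest probe set, and 8 genes were represented by a tested one. Fgf21 had a dim probe set only, and Gdf15 was not analysed here.

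RNA was taken from gastrocnemius muscle of 5 male PolgD257A/D257A mice, called D257A mice below, and of 5 male Polg+/+ mice, called WT mice, all 13 months old, with 1 mouse per array and no treatment named. D257A mice are homozygous in every cell for a knock-in form of Polg, the mitochondrial DNA polymerase gamma, that cannot proofread, so that mutations build up in mitochondrial DNA. Both genotypes came from a mixed 129Sv/ICR/B6 stock that was backcrossed to C57Bl/6J. The comparison asks whether muscle with a high load of mitochondrial DNA mutations differed from normal muscle of the same age in these transcripts.

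In the integrated stress response, kinases that sense lack of amino acids, unfolded protein, viral RNA or mitochondrial trouble phosphorylate the translation factor eIF2α, which slows most protein synthesis but lets Atf4 mRNA be translated. ATF4 protein then binds, often with a C/EBP partner, to genes for amino acid synthesis and uptake, for one-carbon metabolism and for stress factors such as Ddit3 and Trib3. In muscle with mitochondrial disease the same program is known for the release of the hormones FGF21 and GDF15, which act on metabolism and appetite. Much of ATF4 control lies in translation, which an mRNA array does not measure.

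Values are array signals scaled so that the trimmed mean of each array is 500, and log2 fold changes are D257A minus WT from limma, with its standard error. Calls were made at a threshold of 0.05 on the adjusted p, by Benjamini-Hochberg over all 22518 probe sets tested. Those were the probe sets brighter on average than the median, which corresponds to a signal of at least 76.9. The median log2 signal of an array was 0.13 lower in D257A mice than in WT mice after scaling (6.36 ± 0.06 against 6.49 ± 0.05, SD, n = 5 each, exact permutation p = 0.0238). The markers of the muscle fibre, Acta1, Ckm and the fast myosins among them, were bright in every mouse, with a summed signal of 402300 to 437600 in D257A mice and 363800 to 476400 in WT mice. Myoglobin (Mb) was called, alone among these 8 markers (log2 -0.35, limma adjusted p = 0.0353), a call that was lost without any of 8 of the 10 mice (limma adjusted p 0.0538 to 0.0953) and with arrays centred on their median (0.168). The targeted change is a point mutation, which expression probes cannot check.

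Asns, the enzyme that makes asparagine from aspartate and glutamine and a standard reporter of ATF4 activity, was the only member whose representing probe set was called. Of the 8 members with a tested representing probe set, 1 was called higher and 0 were called lower, while over all probe sets 3.64% were called higher and 3.74% lower. Counted by probe set, 2 of 16 were called higher, both of Asns, and 1 was called lower, of Mthfd2. The dimmer of the 2 of Asns, 1433966_x_at, had a WT mean of 67.15, below the 76.9 of the filter. It was tested only because its signal in D257A mice was high, so its call adds no support. The median log2 fold change of the 8 members was 0.02, against -0.03 over all probe sets tested, and 4 of the 8 values were positive.

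**Figure D1:**
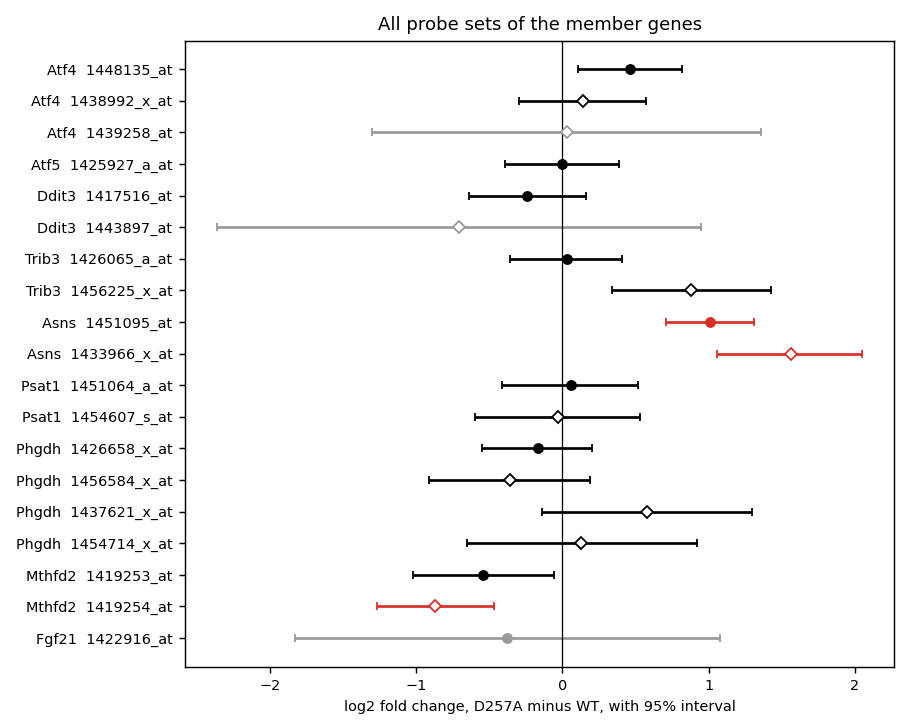
Log2 fold change (D257A minus WT, limma, with its 95% interval) of all 19 probe sets of the members. Filled circles are the brightest probe set of each gene, open diamonds the others, red those called and grey those below the filter; the 2 probe sets of Asns lie at 1.01 and 1.56, and 1419254_at of Mthfd2 at -0.87.

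The Asns promoter shows the element through which ATF4 is known to act. In the RefSeq promoter of Asns, on GRCm38.p6, a script found the letters TGATGNAA, the core of the C/EBP-ATF response element, where N is any base. The 250 bases before the Asns start, at chr6:7693210-7693459 on the minus strand, are printed 5′ to 3′ with that match in capitals.
Asns: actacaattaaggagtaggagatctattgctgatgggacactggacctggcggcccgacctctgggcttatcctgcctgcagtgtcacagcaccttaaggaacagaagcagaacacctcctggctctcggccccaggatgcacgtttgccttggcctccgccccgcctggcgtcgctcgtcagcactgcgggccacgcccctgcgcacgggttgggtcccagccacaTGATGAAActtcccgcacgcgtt
The match TGATGAAA lay 23 to 16 bases before the start, on the strand of the gene. The gene itself lies on chromosome 6 from 7675165 to 7693209.

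TGATGNAA, searched on both strands over 250 bases before and 50 after the start, was found in 3.97% of 32851 RefSeq mouse promoters. The 10 members have 13 such promoters, and those of 3 genes held it. Beside Asns, these were Trib3, with TTACATCA on the opposite strand 14 to 21 bases after the start, and Fgf21, with TTGCATCA on the opposite strand 139 to 132 bases before the start. The Fgf21 stretch at chr7:45615600-45615659 on the minus strand is shown for comparison with Asns, since both are known ATF4 targets and Asns passed the filter while Fgf21 did not.
Fgf21: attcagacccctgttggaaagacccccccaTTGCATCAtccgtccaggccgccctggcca
A match is a description of the letters, not a measured binding site, and members without these 8 letters in the window may be bound elsewhere.

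Asns signal by probe set 1451095_at was 413, 333, 329, 364 and 350 in D257A mice 2-17M, 2-21M, 2-25M, 2-27M and 2-30M. In WT mice 1-12M, 1-13M, 2-3M, 2-32M and 3-18M it was 197, 167, 162, 168 and 194. Every D257A mouse lay well above every WT mouse, and the spread within a genotype was small. The means were 357.9 ± 33.8 and 177.7 ± 16.6 (SD, n = 5 each), a 2.01-fold difference (log2 1.01, SE 0.14, 95% interval 0.71 to 1.31, limma adjusted p = 0.00115). Asns was on the list of changed genes that the study drew from these same arrays, so this call is not independent evidence of the direction.

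The dimmer probe set of Asns, 1433966_x_at, gave 258, 180, 189, 148 and 207 in D257A mice in the same order. In WT mice it gave 55.6, 49.6, 83.5, 64.1 and 82.9. The genotypes again did not overlap, and mouse 2-17M was the highest on both probe sets. The log2 fold change was 1.56 (SE 0.23, 95% interval 1.06 to 2.05; 2.94-fold, limma adjusted p = 0.00197), from means of 196.5 ± 40.5 and 67.15 ± 15.5. The WT mean lies below the 76.9 that the filter corresponds to, so this probe set was tested only because its signal in D257A mice was high. Among all probe sets tested, 3.94% had all D257A mice above all WT mice and 3.77% had all below. Among the 16 of the members, 3 were of the first kind, both of Asns and 1 of Trib3, and 1, of Mthfd2, was of the second.

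**Figure D2:**
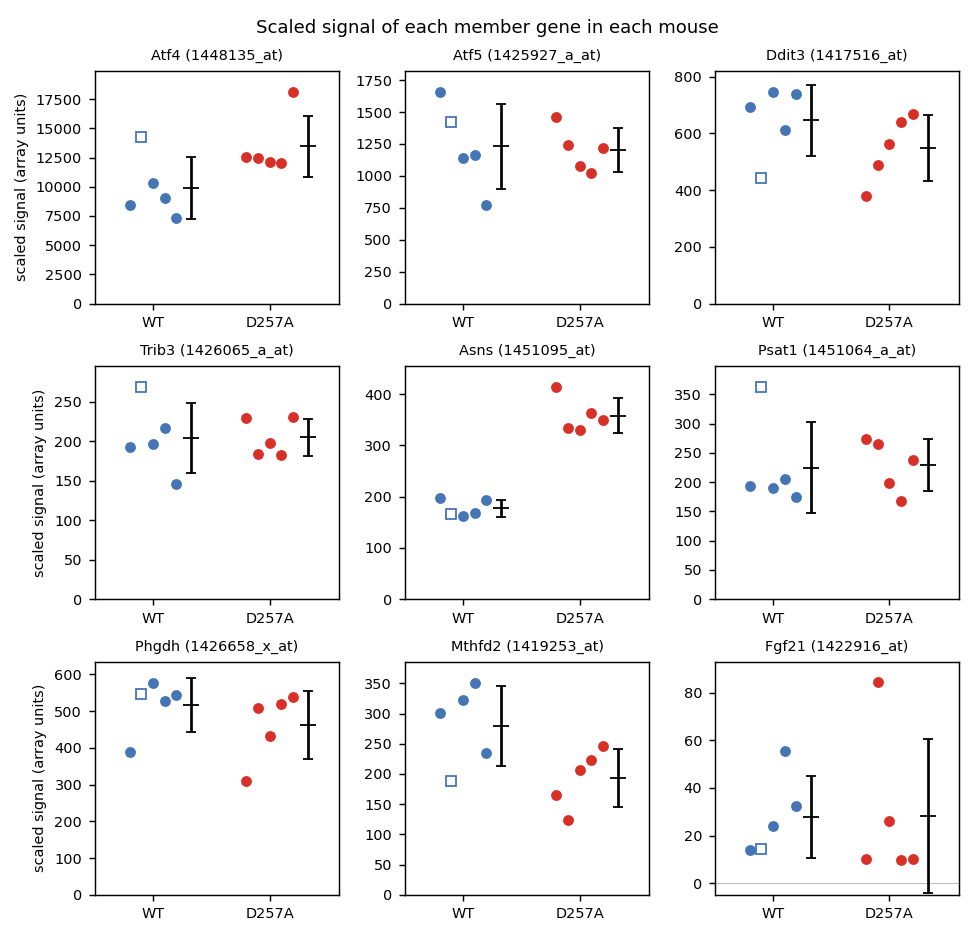
Scaled signal (array units, linear axis) of the representing probe set of 9 members in each mouse, WT in blue and D257A in red, with the mean and SD of 5 mice as bars and WT mouse 1-13M as an open square. Only for Asns do the genotypes not overlap; Fgf21 lies at 84.5 or below in every mouse, and its lower D257A error bar reaches below 0.

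Atf4 encodes the central transcription factor of the response. Its probe set 1448135_at was bright (mean log2 signal 13.47), with 12554, 12487, 12119, 12022 and 18123 in D257A mice 2-17M to 2-30M. In WT mice the signals were 8480, 14274, 10295, 9055 and 7357. The other 4 WT mice lay below all D257A mice, and WT mouse 1-13M lay above 4 of the 5 D257A mice. The means were 13460 ± 2620 and 9892 ± 2670, and the log2 fold change of 0.46 (SE 0.16, 95% interval 0.11 to 0.82) was not called (limma adjusted p = 0.104). Without WT mouse 1-13M the genotypes did not overlap, and the log2 fold change was 0.61 with a limma adjusted p of 0.00558. It was also called with arrays centred on their median (0.60, limma adjusted p = 0.0265) and with array weights (0.48, limma adjusted p = 0.014), and under none of the other 19 of 22 alternatives. These settings also called more of all probe sets higher. The share was 7.32% without 1-13M, 7.10% with median centring and 8.25% with array weights, against 3.64% in the main fit. For Atf4, the log2 fold change was 0.35 without D257A mouse 2-30M (limma adjusted p = 0.216) and 0.30 by the mean of the gene's probe sets (limma adjusted p = 0.321).

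The other tested probe set of Atf4, 1438992_x_at, gave 1643, 1601, 2106, 2182 and 3125 in D257A mice. It gave 1321, 2490, 2244, 1983 and 1601 in WT mice. Here the ranges overlapped, and D257A mouse 2-30M alone lay above every WT mouse. The log2 fold change was 0.14 (SE 0.20, limma adjusted p = 0.734). The D257A mouse 2-30M was the highest on both. The third probe set, 1439258_at, stayed between 3.57 and 21.4 in all mice, too dim to be tested. The log2 ratio of 1438992_x_at to 1448135_at was 0.33 lower in D257A mice (difference -0.33; exact permutation p = 0.0635, 0.127 after adjustment over the 6 genes with such a pair).

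Atf5, a related factor tied to mitochondrial protein stress, had a single probe set, 1425927_a_at. D257A mice had signals of 1459, 1239, 1081, 1021 and 1215, and WT mice had 1658, 1423, 1137, 1163 and 776. The D257A values lay inside the WT range. The log2 fold change was 0.00 (SE 0.18, 95% interval -0.39 to 0.39, limma adjusted p = 0.999). Atf5 and Fgf21 lie on chromosome 7, as does Polg (79446231 to 79467911 on GRCm38.p6), Atf5 from 44812256 to 44816658 and Fgf21 from 45613890 to 45615490.

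Ddit3 encodes CHOP, the factor linked to cell death under lasting stress. Probe set 1417516_at gave 381, 490, 563, 640 and 668 in D257A mice and 692, 442, 746, 612 and 738 in WT mice. The means were 548.4 ± 116 and 646 ± 126, the ranges overlapped, and WT mouse 1-13M had the lowest WT value. The log2 fold change of -0.24 (SE 0.19, 95% interval -0.64 to 0.16) was not called (limma adjusted p = 0.471). A second probe set, 1443897_at, was below the filter in all mice but WT mouse 3-18M, at 124, and in a fit over all probe sets its log2 fold change was -0.71 (SE 0.77, limma adjusted p = 0.726).

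Trib3, a pseudokinase that is induced by ATF4 and CHOP and feeds back on them, was read differently by its 2 probe sets. Probe set 1426065_a_at gave 230, 184, 198, 183 and 231 in D257A mice and 193, 268, 196, 217 and 147 in WT mice. The D257A mice lay within the WT range, with a log2 fold change of 0.03 (SE 0.18, 95% interval -0.36 to 0.41, limma adjusted p = 0.947). Probe set 1456225_x_at gave 232, 228, 255, 204 and 282 in D257A mice and 130, 195, 65.3, 164 and 134 in WT mice. All D257A mice lay above all WT mice on this probe set, with means of 240.3 ± 29.7 and 137.7 ± 48.1. Its log2 fold change of 0.88 (SE 0.25, 95% interval 0.34 to 1.43) missed the threshold (limma adjusted p = 0.0508) and passed it under 6 of 20 alternatives, with adjusted p from 0.0109 to 0.118 over all of them.

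The log2 ratio of the 2 Trib3 probe sets differed between genotypes by 0.86, lying between 0.01 and 0.36 in D257A mice and between -1.59 and -0.13 in WT mice (exact permutation p = 0.00794, the smallest that 5 against 5 mice can give; 0.0476 after adjustment over 6 genes). For Asns the same ratio, dimmer to brighter probe set, was 0.55 higher in D257A mice (exact permutation p = 0.0238, 0.0714 adjusted). The dimmer Asns probe set passed the filter only through its signal in D257A mice. The filter thus favoured a higher ratio in D257A mice, and no conclusion is drawn from this ratio. Probe sets ending in _x_at hold probes that can also match other transcripts. Which transcripts these probes detected in these samples was not tested. These ratio tests were chosen after the values were seen.

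**Figure D3:**
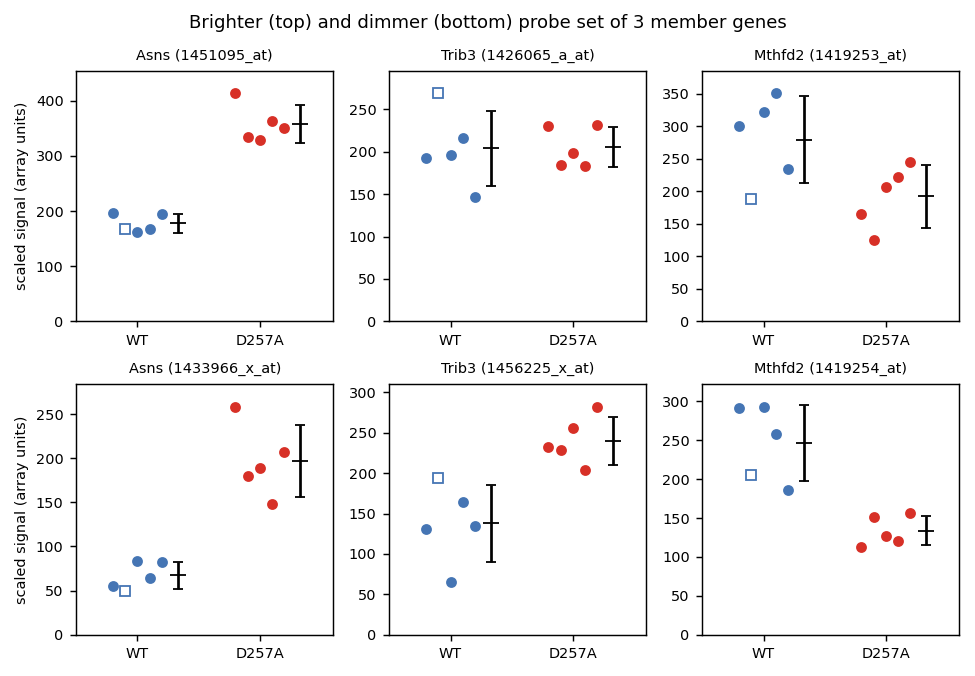
Scaled signal (array units, linear axis) per mouse for the brighter (top) and dimmer (bottom) tested probe set of Asns, Trib3 and Mthfd2, WT in blue and D257A in red, with mean and SD of 5 mice and WT mouse 1-13M as an open square. The genotypes are apart on both probe sets of Asns, and only on the dimmer ones of Trib3 (240.3 against 137.7) and Mthfd2 (133.9 against 246.7).

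Psat1 and Phgdh catalyse early steps in the synthesis of serine from a glycolytic intermediate. Psat1 probe set 1451064_a_at gave 274, 265, 199, 169 and 238 in D257A mice and 193, 362, 190, 205 and 174 in WT mice. The highest value of all was that of WT mouse 1-13M, and the others overlapped. The log2 fold change was 0.06 (SE 0.22, 95% interval -0.41 to 0.52, limma adjusted p = 0.905). The dimmer 1454607_s_at, at 73.8 to 185, gave -0.03 (SE 0.26, limma adjusted p = 0.957), again with the highest signal in WT mouse 1-13M.

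Phgdh, the first enzyme of that path, had 4 tested probe sets, all ending in _x_at, and 2 further probe sets that name Phgdh together with another gene were not used. The brightest, 1426658_x_at, gave 311, 509, 433, 520 and 538 in D257A mice and 388, 545, 577, 528 and 544 in WT mice. Most mice of either genotype lay near the top of these ranges, with D257A mouse 2-17M and WT mouse 1-12M the lowest. The log2 fold change was -0.17 (SE 0.17, 95% interval -0.55 to 0.20, limma adjusted p = 0.583). The other probe sets gave -0.36 (SE 0.26), 0.58 (SE 0.34) and 0.13 (SE 0.36), with limma adjusted p of 0.427, 0.321 and 0.861, so that the 4 probe sets of this gene did not share a sign.

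Mthfd2, the mitochondrial enzyme of one-carbon metabolism that mitochondrial stress is known to induce, was lower in D257A mice on the probe set that was called. Probe set 1419254_at gave 113, 152, 127, 121 and 156 in D257A mice and 291, 206, 293, 258 and 186 in WT mice. All D257A mice lay below all WT mice, with means of 133.9 ± 19.2 and 246.7 ± 49.0. The fall was 1.83-fold (log2 -0.87, SE 0.19, 95% interval -1.27 to -0.47, limma adjusted p = 0.0133), and it was called under all 20 alternatives in which it was tested, with log2 fold changes from -1.05 to -0.74.

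The brighter probe set of Mthfd2, 1419253_at, which represents the gene, gave 165, 125, 206, 223 and 246 in D257A mice and 301, 188, 323, 351 and 235 in WT mice. The ranges overlapped through WT mice 1-13M and 3-18M and D257A mice 2-25M, 2-27M and 2-30M. Its log2 fold change had the same sign, at -0.54 (SE 0.22, 95% interval -1.02 to -0.06), but was not called (limma adjusted p = 0.158). Without WT mouse 1-13M the limma adjusted p was 0.0443, and with array weights it was 0.0233. By the mean of the gene's probe sets the log2 fold change was -0.71 (limma adjusted p = 0.0279). These were the 3 of 21 alternatives that called it. Without 1-13M and with array weights, 7.90% and 9.37% of all probe sets were called lower, against 3.74% in the main fit. The log2 ratio of the 2 probe sets differed between genotypes by -0.33 (exact permutation p = 0.183, 0.274 adjusted over 6 genes).

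Fgf21, a hormone of the fasted liver that stressed muscle is also known to secrete, was too dim to be tested. Its probe set 1422916_at gave 10.3, 84.5, 26.2, 9.80 and 10.4 in D257A mice and 13.9, 14.2, 23.9, 55.5 and 32.5 in WT mice. The highest and the 3 lowest values were all from D257A mice, and 9 of the 10 mice lay below the 76.9 of the filter. In a fit over all probe sets the log2 fold change was -0.38 (SE 0.68, 95% interval -1.83 to 1.08, limma adjusted p = 0.85), an interval that holds a rise of the size seen for Asns. At this signal a difference of that size was not detectable.

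The log2 ratio of Asns to each other tested member, by representing probe sets, was compared mouse by mouse. The ratio of Asns to Mthfd2 was 1.55 higher in D257A mice, that to Ddit3 1.25, to Phgdh 1.18, to Atf5 1.01, to Trib3 0.98 and to Psat1 0.95 (each exact permutation p = 0.00794, 0.00926 adjusted over 7 ratios). The ratio of Asns to Atf4 was 0.55 higher (exact permutation p = 0.0476 before and after adjustment). These 7 ratios share the same Asns values and do not depend on how an array was scaled. They were chosen after the values were seen. Asns had already been called with its genotypes apart. Its ratios to members with log2 fold changes near 0 therefore restate that difference and are not further evidence for it. The ratio to the other Trib3 probe set, 1456225_x_at, whose log2 fold change of 0.88 was close to the 1.01 of Asns, was not tested.

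No mouse was highest for all members. Among D257A mice, 2-30M had the highest signal for Atf4, Ddit3, Trib3, Phgdh and Mthfd2, and 2-17M for Atf5, Asns and Psat1, while 2-27M was lowest for 4 of the 8. Among WT mice, 1-13M was highest for Atf4, Trib3 and Psat1 and lowest for Ddit3 and Mthfd2, and 3-18M was lowest for Atf4, Atf5, Trib3 and Psat1. The D257A mouse with the highest Atf4, 2-30M, had an Asns signal of 350, inside the D257A range of 329 to 413.

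The wider pathway was followed in 9 lists of 100 genes, of which 94 had a probe set of their own and 90 were tested. Of the 90, 3 were called higher (3.33%) and 3 lower (3.33%), near the shares over all probe sets. Gpt2, the mitochondrial alanine aminotransferase and an ATF4 target, was higher, at 10810 ± 1890 against 6161 ± 882 (log2 0.80, SE 0.13, limma adjusted p = 0.00346), and kept its call without any single mouse. Got1, the cytosolic aspartate aminotransferase, was lower, at 11240 ± 1440 against 16550 ± 2180 (log2 -0.56, SE 0.11, limma adjusted p = 0.0103). These were the 2 calls among 8 tested enzymes of amino acid metabolism, whose median log2 fold change was 0.30. Pck2, mitochondrial PEP carboxykinase, had the largest value of that list (log2 0.99, SE 0.33) and was not called (limma adjusted p = 0.0862). It was dim, at 146.6 ± 26.9 against 80.2 ± 34.9, with WT mice from 30.64 to 122.7. By mean log2 signal it passed the filter only through D257A mice.

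Of 10 tested sensors and regulators of eIF2α, 1 was called. Ppp1r15b, which brings a phosphatase to eIF2α, was higher (1734 against 1039; log2 0.77, SE 0.22, limma adjusted p = 0.0492). Its call was lost without any of 8 of the 10 mice, with limma adjusted p of 0.0726 to 0.122. The 4 kinases were not called, with Eif2ak4, the sensor of uncharged tRNA, at 0.58 (SE 0.25, limma adjusted p = 0.179) and the other 3 between -0.10 and 0.10.

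Of the 8 tested amino acid transporters, 1 was called higher and 1 lower. Slc1a4, a carrier of serine, alanine and other neutral amino acids, was higher (133.5 against 75.23; log2 0.83, SE 0.22, limma adjusted p = 0.0375), and its WT mean lay below the filter's 76.9. Slc6a9, a glycine carrier, was lower (485.8 against 722.9; log2 -0.57, SE 0.15, limma adjusted p = 0.0361). The call of Slc1a4 was lost without any of 8 mice (limma adjusted p 0.0549 to 0.0871) and that of Slc6a9 without any of 7 (0.059 to 0.0998).

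Among 10 other stress factors 0 were called, with a median log2 fold change of 0.28. Chac1, a glutathione-degrading ATF4 target, came nearest to the threshold at 0.62 (SE 0.18, limma adjusted p = 0.0504), followed by Vldlr, a lipoprotein receptor, at -0.52 (SE 0.15, limma adjusted p = 0.0565). The 8 other enzymes of serine and one-carbon metabolism had 0 calls and a median of -0.22, with 7 of 8 values below 0. The 19 tested cytosolic tRNA synthetases, another known set of ATF4 targets, also had 0 calls, with values from -0.29 to 0.31.

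Mitochondrial chaperones and proteases, read as markers of the mitochondrial unfolded protein response, lay between -0.21 and 0.03 for all 11 genes, with 0 calls. Of 14 tested genes of the endoplasmic reticulum, Hyou1, a chaperone, was lower (416 ± 49.3 against 653.3 ± 95.8; log2 -0.65, SE 0.14, limma adjusted p = 0.0141), and 13 were not called. Of the receptors for the 2 mitokines, Fgfr1 (log2 0.42, SE 0.18, limma adjusted p = 0.161) and Ret (-0.32, SE 0.33, limma adjusted p = 0.592) were tested and not called. Klb was too dim to be tested (24.68 in D257A mice and 30.7 in WT mice), and Gfral had no probe set of its own. Without WT mouse 1-13M the count over the 90 genes was 10 higher and 5 lower, where 7.32% and 7.90% of all probe sets were called. Centring arrays on their median gave 9 higher and 2 lower, where 7.10% and 1.86% of all were called. The count was 1 higher and 3 lower without scaling, where 1.58% and 3.8% of all were called. With no filter it was 1 higher and 2 lower, where 1.2% and 1.33% of all were called. With mice blocked by the first digit of their number it was 1 higher, Gpt2, and 0 lower, where 1.29% and 1.2% of all were called.

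**Figure D4:**
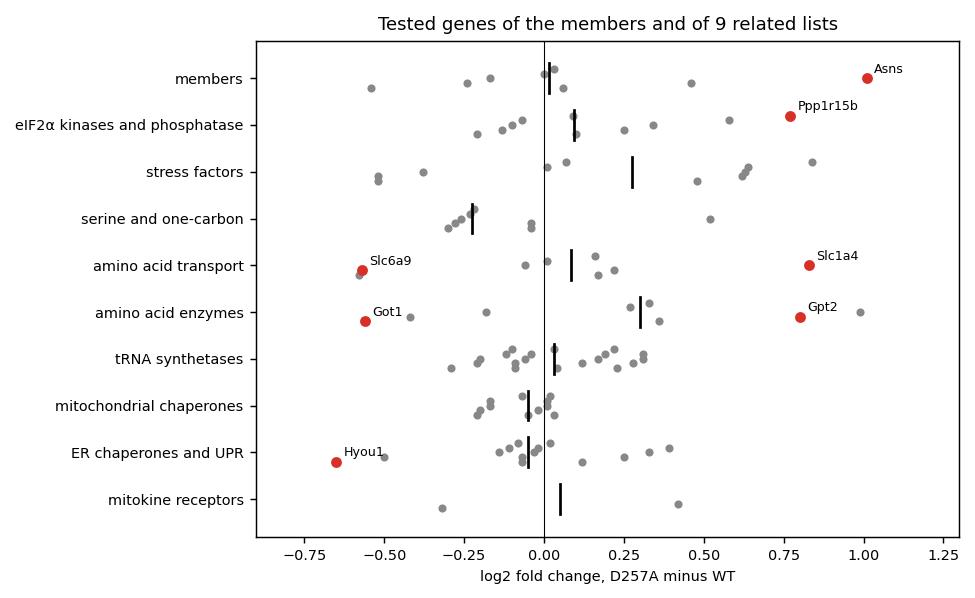
Log2 fold change (D257A minus WT) of each tested gene of the members and of the 9 other lists, with called genes in red and named, the others in grey, and the median of each list as a black bar. Most values lie within 0.50 of 0, and the 6 called genes outside the members are spread over 4 lists, 3 higher and 3 lower.

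Muscle tissue holds other cells than fibres, and in bulk tissue fewer cells of a type cannot be told apart from less RNA per cell. Of 9 tested macrophage markers, 4 were called higher in D257A mice (Lyz2, Cd163, Mrc1 and Fcgr3), where 3.64% of all probe sets were called higher. The other 5 were not called, with Cd68 at log2 0.02, C1qa at 0.01, Csf1r at 0.20, Adgre1 at 0.33 and C1qb at 0.48. The summed signal over the list was 8622 to 13120 in D257A mice and 6989 to 8902 in WT mice. Lyz2 lost its call without any of 6 mice (limma adjusted p 0.0761 to 0.112) and Cd163 without any of 3 (0.0511 to 0.0594), while Mrc1 and Fcgr3 kept theirs without any single mouse. Of 5 fibroblast markers, the collagens were called lower, Col1a1 at log2 -2.87 (limma adjusted p = 0.0282) and Col3a1 at -1.80 (limma adjusted p = 0.0245). Of all probe sets, 3.74% were called lower. The other 3 markers were not called, with Pdgfra at -0.04, Dcn at -0.08 and Lum at -0.48. Col1a1 was dim in D257A mice (8.225 to 160.9) and passed the filter only through WT mice. The summed signal of the 5 was 20240 to 24190 in D257A mice and 20040 to 30580 in WT mice. The Col1a1 call was lost without any of 4 mice (limma adjusted p 0.0569 to 0.077) and that of Col3a1 without any of 6 (0.0517 to 0.0695). Markers of fat cells, endothelium, Schwann cells, satellite cells and red cells had 0 calls among 16 tested. Red cells rested on 1 tested marker, Alas2, at 383.4 in D257A mice against 184.3 in WT mice (log2 1.05, SE 0.32, limma adjusted p = 0.0599). The part of these cells in the values of Asns and Mthfd2 was not tested.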

How the data were processed

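Total RNA from gastrocnemius of 10 mice was hybridized to Affymetrix Mouse Genome 430 2.0 arrays. A line of the extraction protocol names another tissue, and the tissue labels were followed. The authors deposited signal intensity values on a linear scale, made with GCOS 1.3 per the submitters' processing notes, and state a target of 500. The trimmed means of the deposited columns (2% left out at each end) were 93.45 to 106.1 in D257A mice and 94.51 to 128.7 in WT mice, so each array was scaled to 500 here and log2 taken. The number of arrays limits the precision. Array pairs correlated at 0.9071 to 0.9258, and 0 pairs were identical.

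Of 45037 probe sets without AFFX controls, the brighter 22518, by mean log2 signal over all arrays, entered limma 3.58.1 under R 4.3.3 (lmFit, eBayes with trend, no covariate, 5 against 5 mice) and adjusted by Benjamini-Hochberg. Members below that filter have values from a fit over all probe sets. Symbols came from the platform's annotation, in which 34945 probe sets have 1 symbol, 932 several and 9160 none, and only single-symbol probe sets were used. Ratios of probe sets were compared by 2-sided exact permutation tests over mice, enumerated in Python 3.11.15 with NumPy 2.4.6. Promoters and positions are from RefSeq, GRCm38.p6.

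The members and the pathway and marker lists were chosen with earlier results of these data known. Named genes were all members, up to 3 called genes of each pathway list by smallest adjusted p, and markers that moved; uncalled pathway genes given with values were chosen after their values were seen. Alternatives were no scaling, quantile normalization, median centring, no filter, the brightest 11259 probe sets, no variance trend, array weights, an offset of 32, the methods' t-test, mice numbered 2, a block for the first digit of mouse numbers, the mean of a gene's probe sets, and each mouse left out. Pathway counts and ratio tests were added after seeing the data. The fit was tested on simulated data. The authors' list of changed genes was used only to say which members it names, and none of its values was used.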

Additional observations from a re-analysis of the deposited data

Results flagged for a closer look

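In each genotype, the highest and the lowest of the 5 mice were set against the other 4 for every member probe set. The measure was the share of the group's range of log2 signal that separates the extreme mouse from its neighbour. Shares were taken on the log2 scale, while the signals printed beside them are linear. In 4 of 38 such groups that share passed Dixon's 95% critical value of 0.71, and chance alone passes it in about 1 of 20 groups. For Atf4 (1448135_at), D257A mouse 2-30M stood at 18123 against 12022 to 12554 in the other D257A mice, a share of 0.894. For Psat1 (1451064_a_at), WT mouse 1-13M stood at 362 against 174 to 205, a share of 0.775. For Phgdh, WT mouse 1-12M stood low at 388 against 528 to 577 on 1426658_x_at, a share of 0.778. On another Phgdh probe set, 1456584_x_at, it was WT mouse 2-3M that stood low, at 169 against 239 to 258, a share of 0.819.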

How the results depend on the processing

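The calls of Asns by 1451095_at (log2 0.89 to 1.28 under 21 alternatives) and of Mthfd2 by 1419254_at held under every alternative in which they were tested. The other Asns probe set passed the filter only through its signal in D257A mice, so its calls add nothing here. Ddit3 (1417516_at) and Fgf21 kept their sign and were never called. Members called by representing probe set numbered 1, where 3.64% of all probe sets were called higher and 3.74% lower. They numbered 2 with median centring, where these shares were 7.10% and 1.86%, and 3 with array weights, where they were 8.25% and 9.37%. By the mean of a gene's probe sets they numbered 2, and no share over all genes was counted. Among the brightest 11259 probe sets, which leave Asns out as too dim, they numbered 0 (shares 6.9% and 6.08%). When single mice were left out they numbered 1 to 3, the 3 without WT mouse 1-13M, where the shares were 7.32% and 7.90%. Probe sets called in all numbered 1662, against 3968 with array weights, 1033 with the methods' t-test (4997 at an unadjusted p under the threshold), 562 with the leading digit as a block, and 890 to 3428 when single mice were left out, the last without WT mouse 1-13M. The share called higher was 49.3%, 79.3% with median centring and 29.4% without scaling, where the median of all log2 fold changes was 0.10 and -0.10.

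Log2 fold changes near 0 that were not called changed sign in some settings, and the cause was not tested. Without scaling, Atf5 was at -0.07, Trib3 (1426065_a_at) at -0.05 and Psat1 (1451064_a_at) at -0.02. With array weights, Atf5 was at -0.06, Psat1 (1454607_s_at) at 0.08 and Phgdh (1454714_x_at) at -0.19. Atf5 was at -0.00 with the offset, and Psat1 (1454607_s_at) at 0.09 with quantile normalization and 0.10 with median centring. With mice numbered 2 alone and with the digit as a block alike, Atf4 (1438992_x_at) was at -0.03, Trib3 at -0.01, Psat1 (1454607_s_at) at 0.00 and Phgdh (1454714_x_at) at -0.40. Phgdh was at 0.05 by the mean of its probe sets. With single mice left out, Atf4 (1438992_x_at) ran from -0.01 to 0.24, Atf5 from -0.15 to 0.12, Trib3 from -0.09 to 0.13, Psat1 from -0.02 to 0.24 (1451064_a_at) and -0.14 to 0.19 (1454607_s_at), and Phgdh (1454714_x_at) from -0.13 to 0.43. What the leading digit stands for is not stated; it is 2 in all 5 D257A mice and in 2 WT mice. With it as a block, of the pathway genes called, Gpt2 kept its call (limma adjusted p = 0.0329), and Got1 (0.0532), Hyou1 (0.0691), Slc6a9 (0.0716), Ppp1r15b (0.116) and Slc1a4 (0.312) lost theirs. Of the markers called, Mrc1 (0.0345) and Fcgr3 (0.0186) kept theirs, and Col3a1 (0.0931), Col1a1 (0.0985), Cd163 (0.153), Lyz2 (0.198) and Mb (0.203) lost theirs. Among mice numbered 2 alone, Gpt2, Mrc1 and Fcgr3 were again called. So were Got1 (limma adjusted p = 0.0243), Hyou1 (0.0409), Slc6a9 (0.0401), Ppp1r15b (0.031), Col3a1 (0.00337), Col1a1 (0.0461) and Mb (0.0429). Slc1a4 (0.242), Cd163 (0.112) and Lyz2 (0.139) were not. No paired analysis was possible because mouse numbers are not shared between genotypes.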
